A study of Urocitellus parryii with 44 samples.

Results

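The endothelial marker genes Vwf, Cldn5, Pecam1, Flt1, Cdh5, Eng and Esam were followed in brown adipose tissue of arctic ground squirrels, in animals in winter torpor and in animals active in August. Members were chosen by name: every probe whose single gene symbol was one of these or Kdr, Tek or Tie1. This gave 14 probes for 7 of the 10 genes, out of 38400 probes on 4 membranes, of which 25070 carry a single symbol. Kdr, Tek and Tie1 had no such probe and were not analysed here. The study hybridised total RNA labelled with 33P, a radioactive phosphorus isotope, to mouse cDNA membranes MA07, MA08, MA10 and MA11. There were 3 summer active and 5 winter torpid animals, and the RNA of summer animals 1 and 2 and torpid animal 5 was split into duplicates a and b, which were averaged. Season and activity state differ together between the groups, and all RNA is from whole tissue. The labels give no genetic change, drug or sort in either group.

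Endothelial cells line every blood vessel. They hold to each other through tight and adherens junctions (Cldn5, Cdh5, Esam) and through the adhesion molecule Pecam1. They also store the clotting glycoprotein Vwf for release, and read growth signals through receptors such as Flt1 and Eng. Brown fat is densely supplied with capillaries, which carry oxygen and fuel in and heat out. Blood flow and platelet numbers are known to fall in torpid ground squirrels.

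Vwf had the lowest difference and Eng the highest, and no endothelial marker passed the test between torpor and summer. Of the 13 probes that could be tested, 9 had positive and 4 negative values of torpor minus summer. Levels are given as log2 of a spot's intensity relative to the median spot of its column. The median difference was 0.11, beside 6.5e-05 over all 37848 probes tested. By limma with Benjamini-Hochberg adjustment over all of those probes, 0 of the 13 were called, against 0.309% of all probes. At an unadjusted p under 0.05 there were 2 of 13 (15.4%), Vwf on MA10 and the human ENG probe on MA11, against 11.6% of all probes. At all 13 the ranges of torpid and summer animals overlapped, beside 8.50% of all probes with ranges that did not. These shares were not tested against each other. The adjusted p ranged from 0.41 to 0.97. In tissue RNA, a change in the number of endothelial cells and a change in RNA per cell cannot be told apart.

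**Figure D1:**
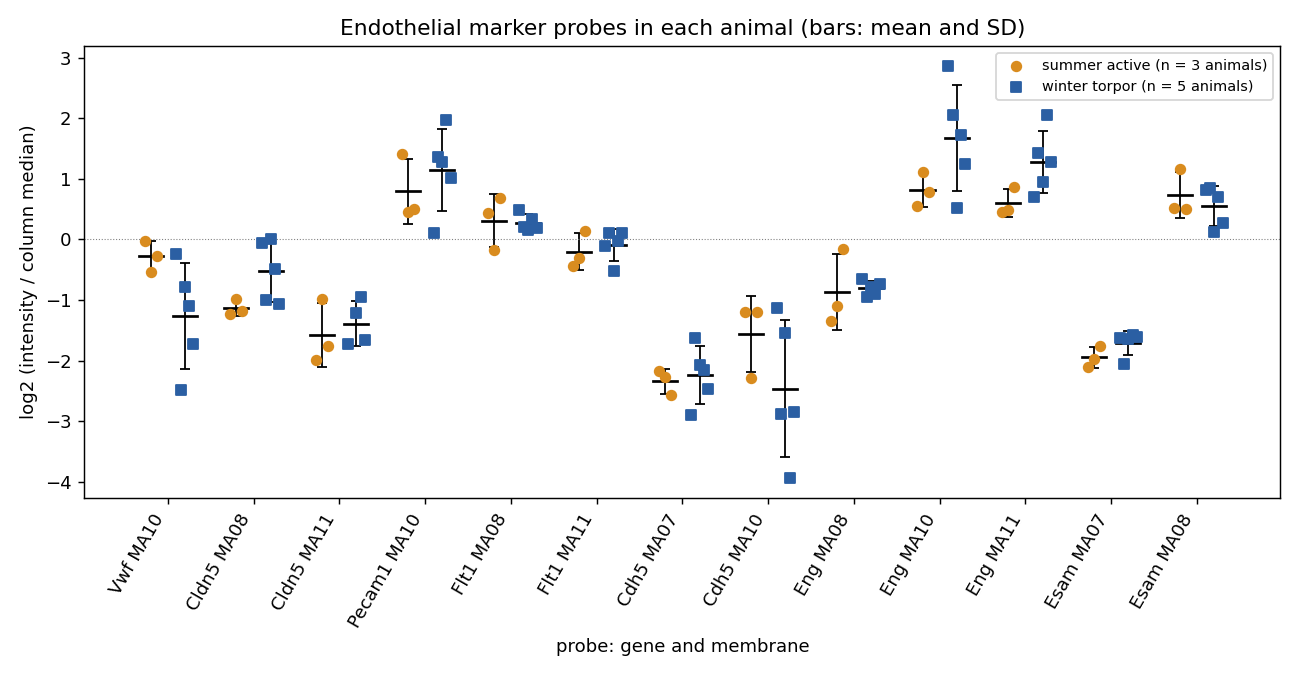
Level of each of the 13 testable endothelial probes (gene and membrane on the horizontal axis) as log2 of intensity over the column median, for 3 summer animals (circles) and 5 torpid animals (squares), with the mean and SD of each group. The groups overlap for every probe; 4 torpid animals lie below all summer animals for Vwf, and 4 lie above them for Eng on MA10.

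Vwf, the large glycoprotein that tethers platelets and carries factor VIII, was measured by 1 probe on MA10 (probe 485). Its log2 level was -0.02, -0.54 and -0.27 in summer animals 1 to 3. In torpid animals 1 to 5 it was -0.23, -2.49, -0.78, -1.10 and -1.73. Torpid animals 2 to 5 lay below all 3 summer animals, and torpid animal 1 lay between them. The mean was -1.27 ± 0.87 (SD, n = 5) in torpor and -0.28 ± 0.26 (SD, n = 3) in summer. This is a difference of -0.99 ± 0.47 (SE), 1.98-fold lower, with a 95% interval from -1.97 to -0.01 and an adjusted p of 0.43. Duplicates of 1 RNA lay 1.15, 1.27 and 0.49 apart in summer animals 1 and 2 and torpid animal 5, so the difference between the groups was smaller than the gap within 2 of 3 split RNAs.

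Cldn5, the claudin of endothelial tight junctions, was measured by the same clone on MA08 (probe 2165) and MA11 (probe 4947). On MA08 the summer animals read -1.23, -0.99 and -1.18, within a narrow band. The torpid animals read -0.05, -0.996, -5.3e-05, -0.49 and -1.07, so that 3 of them lay above every summer animal and 2 within the summer range. The difference was 0.61 ± 0.28 (SE), 1.53-fold higher, with a 95% interval from -0.01 to 1.23 and an adjusted p of 0.44.

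On MA11 the same clone did not separate the animals in this way. The summer animals read -1.99, -0.98 and -1.77 there. Torpid animals 1, 3, 4 and 5 read -1.73, -1.21, -0.94 and -1.67, and torpid animal 2 had no value, so the fit rests on 4 torpid animals, with torpid animal 5 measured in duplicate b alone. The difference was 0.19 ± 0.31 (SE), with a 95% interval from -0.50 to 0.88 and an adjusted p of 0.86. Torpid animal 1, among the highest on MA08, was the lowest torpid animal on MA11. Duplicates on MA11 lay 1.10 and 1.73 apart, and on MA08 up to 1.19 apart.

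**Figure D2:**
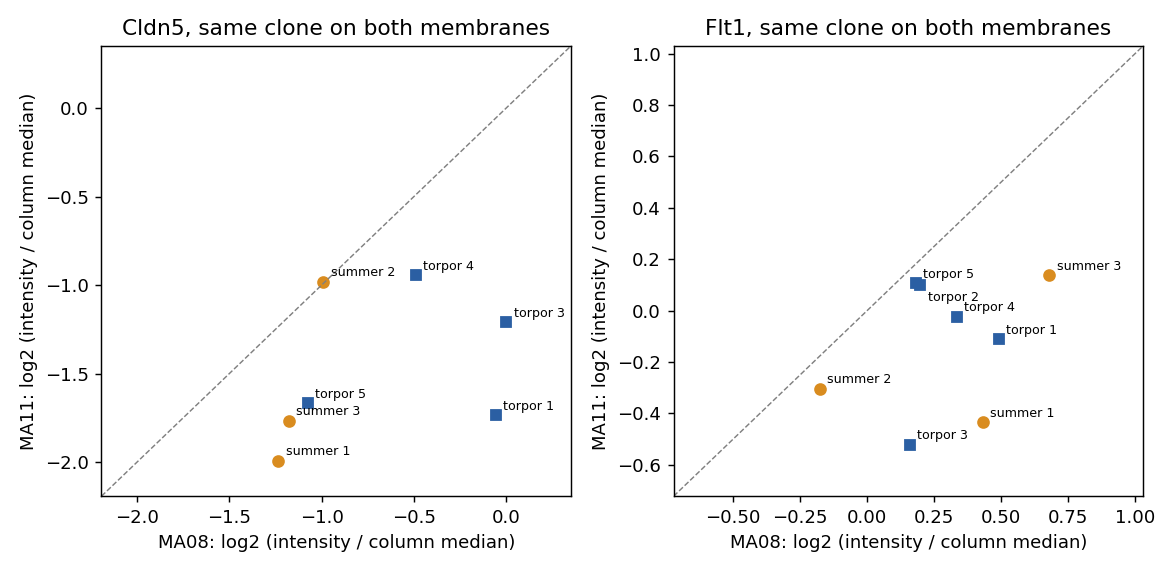
Log2 of intensity over the column median for the single clone of Cldn5 (left) and of Flt1 (right), on MA08 (horizontal axis) and MA11 (vertical axis), 1 point per animal (circles summer, squares torpor), with the line of equal levels dashed. Cldn5 torpid animal 2 is not drawn because it has no MA11 value; torpid animal 1 lies farthest from the line for Cldn5, and the membranes were scaled separately.

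Cdh5, the cadherin of endothelial adherens junctions, had 3 probes, of which 1 could not be tested. That probe (4254 on MA10) had a value in only 1 of 11 columns, that of summer animal 1 (-3.64), and was empty in the other 10. On MA07 (probe 4824) the summer levels were -2.17, -2.27 and -2.57. The torpid levels there were -2.90, -1.62, -2.07, -2.16 and -2.47, on both sides of the summer values. The difference was 0.09 ± 0.27 (SE; adjusted p = 0.93).

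On MA10 (probe 4779) Cdh5 read -1.20, -2.29 and -1.21 in summer. It read -1.13, -2.88, -1.55, -3.93 and -2.85 in torpor, with 3 torpid animals below all summer animals and 1 above. The difference of -0.90 ± 0.55 (SE) had a 95% interval from -2.06 to 0.26 and an adjusted p of 0.55. The duplicates of summer animal 2 lay 2.14 apart at this probe, more than the difference between the groups. The value was -0.53 without torpid animal 4 and -0.28 with the replicate number as a block.

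Esam, an adhesion protein of endothelial junctions also found on platelets, had 2 probes of different clones. On MA07 (probe 6074) it read -2.10, -1.98 and -1.75 in summer. The torpid animals read -1.62, -2.05, -1.65, -1.58 and -1.61, so that 4 of 5 lay above all summer animals and torpid animal 2 lay among them. The difference was 0.24 ± 0.18 (SE; 95% interval -0.16 to 0.64, adjusted p = 0.64). On MA08 another clone (probe 3669) read 0.51, 1.17 and 0.50 in summer and 0.82, 0.85, 0.13, 0.69 and 0.27 in torpor. There the torpid animals lay inside or below the summer range, and the difference was -0.17 ± 0.25 (SE; adjusted p = 0.83).

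Pecam1, an adhesion molecule (CD31) shared by endothelium, platelets and leukocytes, had 1 probe with a single symbol (6173 on MA10). The summer animals read 1.42, 0.45 and 0.51. The torpid animals read 0.10, 1.36, 1.28, 1.97 and 1.02, and torpid animals 1 and 4 lay below and above the whole summer range. The difference was 0.36 ± 0.44 (SE; 95% interval -0.58 to 1.29, adjusted p = 0.79). It ran from 0.15 without torpid animal 4 to 0.67 without summer animal 1, and was 0.085 with duplicates a alone.

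Flt1, the VEGF receptor 1, which binds VEGF-A and VEGF-B, was also measured by a single clone on both MA08 (probe 8382) and MA11 (probe 9222). On MA08 it read 0.43, -0.18 and 0.68 in summer and 0.49, 0.20, 0.16, 0.34 and 0.18 in torpor, all torpid values lying within the summer range. The difference was -0.04 ± 0.23 (SE), with a 95% interval from -0.54 to 0.46 and an adjusted p of 0.97. On MA11 the summer levels were -0.43, -0.30 and 0.14 and the torpid levels -0.11, 0.10, -0.52, -0.02 and 0.11. The difference was 0.11 ± 0.24 (SE; 95% interval -0.42 to 0.64, adjusted p = 0.90). Both intervals leave out a change of 1 on the log2 scale, a 2-fold change, in either direction.

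Eng (endoglin), a co-receptor for ligands of the TGF-β and BMP family on endothelium, had 3 probes of different clones, all with positive differences. On MA10 (probe 8499) it read 0.56, 1.11 and 0.79 in summer and 2.86, 2.05, 0.53, 1.72 and 1.25 in torpor. Torpid animal 3 lay below all summer animals, and the other 4 above them. The difference was 0.86 ± 0.47 (SE), with a 95% interval from -0.12 to 1.85 and an adjusted p of 0.49. The duplicates of summer animal 1 lay 2.04 apart there, and the difference was 0.57 without torpid animal 1 and 0.56 with duplicates b alone.

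On MA11 (probe 5673) the sequence is of the human gene, under the symbol ENG. It read 0.45, 0.49 and 0.86 in summer and 0.71, 1.42, 0.95, 2.05 and 1.29 in torpor, with 4 torpid animals above all summer animals and torpid animal 1 among them. The difference was 0.68 ± 0.30 (SE; 95% interval 0.03 to 1.34, adjusted p = 0.41). This was the only one of the 13 probes whose difference exceeded the gap in each of its split RNAs, the widest being 0.49. On MA08 (probe 843) Eng read -1.34, -1.10 and -0.15 in summer and -0.65, -0.95, -0.79, -0.90 and -0.74 in torpor. All torpid animals lay inside the summer range, and the difference was 0.06 ± 0.26 (SE; adjusted p = 0.95).

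**Figure D3:**
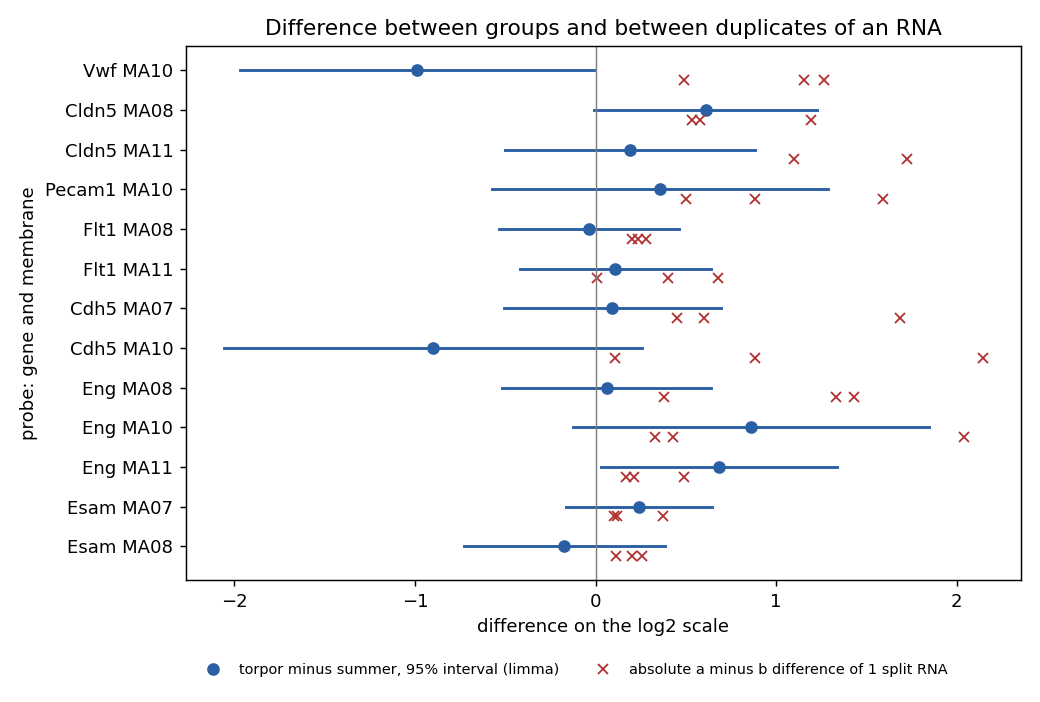
Torpor minus summer on the log2 scale for the 13 testable endothelial probes (points, with the 95% interval from limma), and the absolute gap between duplicates a and b of each split RNA (crosses). Only the Eng probe on MA11 has a difference, 0.68, above all its duplicate gaps.

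The 3 probes with the largest absolute differences, Vwf, Cdh5 and Eng, all lie on MA10, as does Pecam1. On that membrane the median standard error over all tested probes was 0.43, against 0.23, 0.25 and 0.28 on MA07, MA08 and MA11. The absolute differences of Vwf, Cdh5 and Eng stood at the 90.2, 87.4 and 86.0 percentiles of those on MA10. On their own membranes Cldn5 on MA08 and ENG on MA11 stood at the 88.3 and 87.3 percentiles, and Flt1 on MA08 at the 9.58 percentile. In all, 6 of the 13 probes exceeded the median absolute difference of their membrane. Over 38 duplicate pairs of the endothelial probes the median gap was 0.49, against 0.39 over all probes. In mean signal the endothelial probes ran from percentile 7.72 (Cdh5 on MA07) to 78.2 (ENG on MA11) of their membrane, with a median of 34.5, and 6 lay under percentile 25. Averaged over the 12 probes with values in every animal, each centred on its mean, the summer animals stood at -0.05, -0.16 and 0.07 and the torpid animals at 0.23, -0.04, 0.02, 0.09 and -0.16. The groups overlap in this mean. The part of low signal in these values was not tested.

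The labelled tissue was set against its own markers. Of the defining adipocyte genes, Ucp1, Adipoq, Fabp4 and Plin1 had no probe with a single symbol. Cidea, a lipid droplet protein of brown fat, had 3 probes at signal percentiles from 27.1 to 78.6, with differences of -0.37, -0.31 and 0.01. Lpl gave 0.77 and 0.37 on MA10, Pparg -0.20 on MA11 and Dio2 -0.58 on MA08, the last at signal percentile 7.23. Of all adipocyte marker probes, 9 of 22 were positive. Signal over background could not be set from these values, so detection of any marker was not decided.

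Other genes that bind or signal with the members, taken by role with the values known, gave no call either. For Flt1, the 3 probes of its ligand gene Vegfa ran from -0.25 to 0.18, the 2 of Vegfb from 0.02 to 0.48, and the 7 of the co-receptor Nrp1 from -0.54 to 0.24. For Eng, its signalling partner Acvrl1 stood at 0.60 (1 probe, adjusted p = 0.37), Tgfbr2 ran from -0.61 to -0.01 over 3 probes, and the ligand Tgfb1 from -0.0028 to 0.25. Tgfb3, also listed with Eng, ran from -0.46 to 0.12 over 4 probes, of which 1 was positive. Selp, the selectin stored with Vwf in endothelial granules, stood at -0.42 (adjusted p = 0.44). Gp1bb, part of the platelet receptor for Vwf, ran from -0.44 to 0.14 over 4 probes.

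Among the cytoplasmic partners of the junctions, all 6 probes of Tjp1 (ZO-1, the scaffold under claudins) were positive, from 0.24 to 1.91 with a median of 1.42. The lowest adjusted p was 0.11, so Tjp1 did not pass. Ctnnb1 (β-catenin, bound by cadherins) had 2 of 3 positive probes, from -0.29 to 2.26 (lowest adjusted p = 0.16), and Ctnnd1 (p120-catenin) 4 of 5, from -0.18 to 0.52. Jup, listed with Cdh5 as well, gave -0.28 and 0.18 (lowest limma adjusted p = 0.82).

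In the wider lists, 355 probes of 164 genes were tested, and 1 was called. This was Cldn12, another claudin, on MA08 (probe 3959), which rose by 2.26 ± 0.36 (SE; limma adjusted p = 0.029). It read 0.63, -0.18 and 0.52 in summer and 1.99, 2.98, 2.30, 3.52 and 2.12 in torpor, with no overlap of the groups. Its other probes gave -0.74 on MA08 and 0.10 on MA10, and leaving out summer animal 2, torpid animal 2 or torpid animal 3 raised the limma adjusted p to 0.055, 0.087 and 0.063. It was also above 0.05 with cyclic loess (0.065), a floor (0.058), duplicates b (0.115) and the replicate block (0.170), so that Cldn12 was called in 10 of 17 alternatives. The 17 probes of the 9 claudin genes other than Cldn5 had a median of -0.05, with 8 positive. Over the 355 probes, 13.8% had an unadjusted p under 0.05 and 8.17% had groups that did not overlap, beside 11.6% and 8.50% of all probes.

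By role, endothelial-enriched genes other than the members had 15 of 36 positive probes and a median of -0.08, with 3 at an unadjusted p under 0.05 and 0 called. Rasip1, a regulator of vessel lumen formation, had the smallest p there at -0.77 ± 0.21 (SE; adjusted p = 0.18), and its groups did not overlap. Thbd, the thrombin receptor thrombomodulin, followed at -2.39 ± 0.76 (SE; adjusted p = 0.23), with values in only 3 of 5 torpid animals. The Thbd value was -4.24 with duplicates a, -0.53 with duplicates b (adjusted p = 0.76), -3.82 with the replicate block and -1.35 without summer animal 2. Angiogenic ligands had 31 of 53 positive probes (median 0.03). Pdgfa on MA11 stood at -0.88 (adjusted p = 0.22, the other 8 probes from -0.46 to 0.55) and Hgf at -0.58 (0.31). The clone of this Pdgfa probe gave 0.55 at another spot on MA11 and 0.34 on MA10. Partner receptors had 21 of 45 positive (median -0.02), led by Itgb1, an integrin subunit, at 1.5 and by Cxcr4, the CXCL12 receptor, at 2.22 (adjusted p = 0.080 and 0.084). The other 4 Itgb1 probes gave 0.94 and 0.997 on MA07, 0.14 on MA08 and -0.61 on MA10. The human CXCR4 probe on MA11 gave 2.14. Endothelial transcription factors had 18 of 38 positive (median -0.05), with Foxo1 at -0.57 and Gata2 at 0.75 (adjusted p = 0.29 and 0.34). The other Foxo1 probes ran from -0.63 to 0.02, and the other Gata2 probe gave 0.47. Haemostasis genes had 14 of 35 positive (median -0.06), led by Anxa5 at 2.30 (adjusted p = 0.11), whose other probes gave -0.06 and -0.82. Junction proteins had 31 of 55 positive (median 0.06). Their summed intensity was 69.3 to 88.6 in summer and 108.4 to 116.8 in torpor, without overlap. The ranges stayed apart without the brightest probe, Ctnnb1 on MA08 (67.1 to 78.8 and 95.6 to 105.8), which held 9.68% of the sum. That remainder includes Gja1 on MA08 (1.63, signal percentile 94.9), Tjp1 on MA07 (1.91, signal percentile 94.5) and Cldn12 on MA08 (2.26). A sum without Gja1, Tjp1 and Cldn12 was not taken. The other Gja1 probes, on MA10 and MA11, were negative. The sum of the other endothelial genes was lower in torpor, at 156.5 to 210.6 in summer and 132.3 to 147.5 in torpor. Of this sum 68.0% was Stab1 on MA11, a scavenger receptor of sinusoidal endothelium and macrophages. Without Stab1 those ranges overlapped, at 45.4 to 58.3 and 46.7 to 50.3. Sums of angiogenic ligands were also lower in torpor, at 164.0 to 180.4 in summer and 123.8 to 149.4 in torpor. They overlapped without the Pdgfa probe on MA11 at -0.88 (80.2 to 87.4 and 77.1 to 92.6). Sums of partner receptors overlapped, at 464.7 to 633.6 and 409.0 to 547.5. Itgav on MA11, an integrin subunit, held 76.5% of the sum. Without Itgav the sums were apart, at 68.9 to 85.5 in summer and 119.4 to 165.6 in torpor. That remainder includes Cxcr4 on MA07, at signal percentile 99.7. Its log2 level was 2.20 to 4.54 in summer and 5.24 to 6.20 in torpor, and a sum without Cxcr4 was not taken. Sums of transcription factors (47.2 to 54.4 and 46.1 to 53.1), haemostasis genes (449.9 to 756.4 and 472.3 to 614.0), mural cells (53.2 to 153.1 and 62.3 to 102.7), adipocytes (33.5 to 44.9 and 36.6 to 43.8) and red cells (14.6 to 27.9 and 14.02 to 24.3) overlapped. Sums were not tested, and an empty cell added nothing to a sum.

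**Figure D4:**
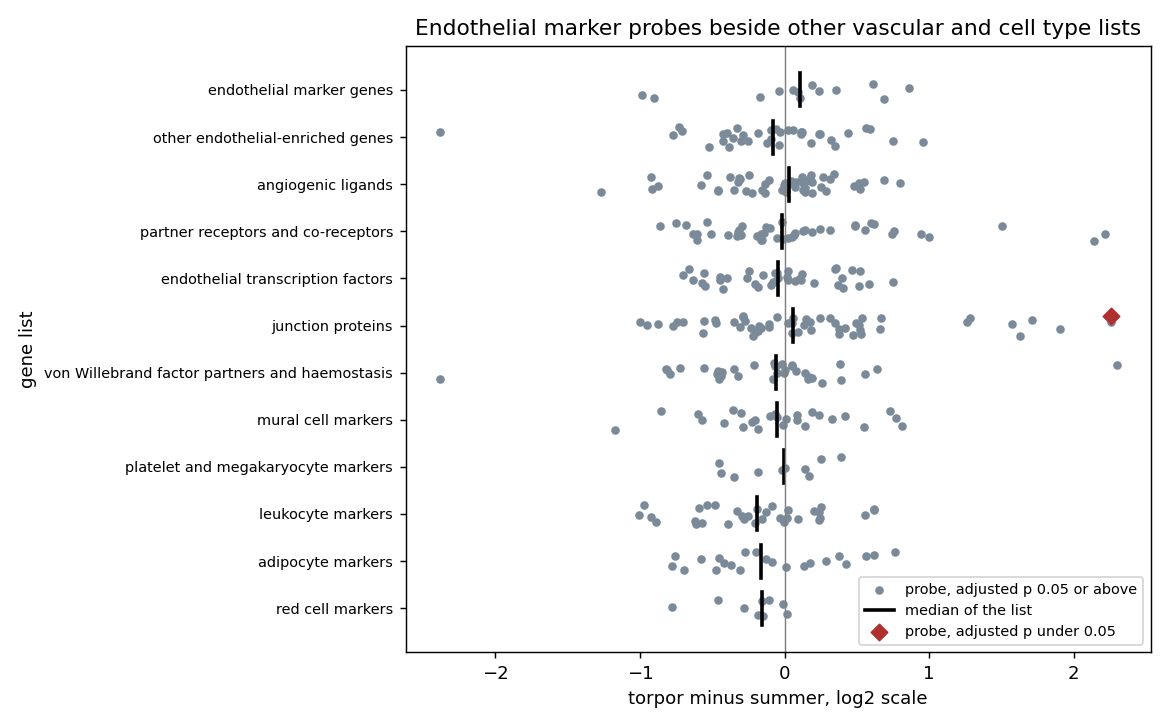
Torpor minus summer on the log2 scale for every tested probe of the endothelial markers and of 11 other gene lists (1 point per probe, vertical bar at the list's median). The endothelial markers lie between -0.99 and 0.86 around a median of 0.11, and the only called probe, Cldn12 among junction proteins, stands at 2.26.

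Markers of other cells that could share the tissue or the members gave no call. Mural cells had 12 of 27 positive probes (median -0.05), with Kcnj8, a potassium channel of pericytes, at 0.77 (adjusted p = 0.25) and Pdgfrb at 0.81 (0.33). The Pdgfrb value rests on 2 summer and 3 torpid animals at signal percentile 3.42, and its other probes gave -0.60 and -0.01. Acta2 came next by p and was lower in torpor, at -0.57 on MA08 and -0.85 on MA11 (limma adjusted p = 0.36 for each). The clone of the MA08 Acta2 probe gave 0.01 on MA11. Platelet markers, listed because platelets too carry Vwf, Pecam1 and Esam, had 5 of 10 positive (median -0.01). Gp1bb and the chemokine Ppbp had the smallest p, at -0.44 and 0.39. The Ppbp value is from MA11, and the same clone gave -0.35 on MA08 and another clone 0.25 on MA07. The summed intensity of platelet markers ran from 12.4 to 13.7 in summer and from 10.5 to 13.1 in torpor. The lowest sum, of torpid animal 2, lacks a value for Tubb1 on MA10, the brightest platelet probe. Without Tubb1 the sums were 9.35 to 10.1 in summer and 7.85 to 10.5 in torpor, with torpid animal 2 the highest. Leukocyte markers had 11 of 33 positive (median -0.19), with the B cell genes Cd79a and Ms4a1 at -1.01 and -0.97 (adjusted p = 0.20 and 0.25), and another Ms4a1 probe gave -0.39. The sum of leukocyte markers ran from 264.8 to 330.2 in summer and from 128.8 to 247.7 in torpor. Of this sum 66.1% came from the Ms4a1 probe at -0.97. Without it the sums overlapped, at 65.9 to 102.2 and 62.0 to 104.5. Red cell markers had 1 of 9 positive (median -0.15), with Hbb-b1 at -0.78 (its other probe at -0.01) and Ank1 at -0.46, and adipocyte markers 9 of 22 (median -0.16), with Lipe at -0.78 and Dio2 at -0.58. The sum of the endothelial probes themselves ran from 11.7 to 12.4 in summer and from 12.2 to 18.1 in torpor. The part of other cells in the endothelial values was not tested.

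The genes most like Vwf and Cldn5 were sought by the root mean square difference of centred log2 levels over the 8 animals, among single-symbol probes of the same membrane with values in all 8. For Vwf these were Snapc3 (0.17), Mrc1 (0.24), Akr1e1 (0.25) and Slc14a1 (0.32), among 5168 candidates with a median of 0.94. Their own differences between torpor and summer lay between -1.27 and -0.81, and none was called. For Cldn5 on MA08 they were Slc25a4 (0.19), Cdv3 (0.20), Cdk17 (0.21) and Nqo2 (0.22), among 6523 with a median of 0.57. Their differences lay between 0.26 and 0.69, likewise without a call. The search used the levels of both groups, so differences close to those of Vwf and Cldn5 follow from the choice itself.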

How the data were processed

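The authors deposited 1 linear spot intensity per probe and column, and every column has a median of 1 (empty cells ranked lowest), as the values show. How images were read and background handled is not stated in any label. Here log2 was taken, empty cells (3.45%) were treated as missing, and duplicates a and b were averaged. limma (version 3.58.1, R version 4.3.3) fitted torpor minus summer, two-sided, separately on each membrane. A probe needed values from 2 animals of each group. Benjamini-Hochberg adjustment ran over the tested probes of all 4 membranes (threshold 0.05). Numbered samples were taken as separate animals, and the number of arrays limits the precision.

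Symbols came from the platform annotation, ignoring case. The members and the 11 lists were chosen with earlier results of these data known. Genes named are all member probes, called list genes or else the 2 with the smallest p per list, and 4 per likeness search. The fit was also run on simulated data, built only from MA08 probes with values in all 8 animals. Missing values and the wider spread of MA10 were not simulated. Alternatives were quantile and cyclic loess normalization, a floor, a filter on dim probes, an intensity trend, duplicates a or b alone, adjustment within membranes, a replicate block and each animal left out. A probe with several symbols, Pecam1 among them, was left out.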

Additional observations from a re-analysis of the deposited data

Results flagged for a closer look

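At 1 of the 13 endothelial probes a torpid animal stood apart from the other 4. For Esam on MA07 (probe 6074), torpid animal 2 was the lowest at -2.05, and the next lowest was -1.65. This gap was 0.84 of the range of the 5 torpid animals, above the limit used for a group of this size. Chance alone would set apart about 1 in 20 groups. Without this animal the difference of torpor minus summer was 0.33 in place of 0.24, with an adjusted p of 0.53 by limma.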

How the results depend on the processing

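No endothelial probe was called under any of the 17 alternatives that tested it, with adjusted p from 0.31 upwards; the filter on dim probes kept 7 of the 13. Over the alternatives run for each, 7 kept their sign: Vwf ran from -1.25 to -0.68, Pecam1 from 0.085 to 0.67, Cldn5 on MA08 from 0.48 to 0.78, Esam on MA07 from 0.16 to 0.34, Cdh5 on MA10 from -1.26 to -0.28, and Eng from 0.56 to 1.16 on MA10 and from 0.43 to 0.83 on MA11. Cldn12 was called in 10 of 17. The floor turned Cdh5 on MA07 (-0.042), Eng on MA08 (-0.20), Cldn5 on MA11 (-0.066) and Pdgfrb (-0.018), and duplicates b turned Cdh5 on MA07 (-0.33). With 1 animal left out, Cdh5 on MA07 ran from -0.063 to 0.26, Eng on MA08 from -0.18 to 0.42, Esam on MA08 from -0.29 to 0.047, Flt1 on MA08 from -0.28 to 0.15, Flt1 on MA11 from -0.0071 to 0.28 and Cldn5 on MA11 from -0.016 to 0.49. The endothelial median stayed between 0.02 and 0.22, except with the floor, and was 0.10 without the human probe (added after the data were seen). With the floor it was -0.02, over 14 probes, because filled empty cells let Cdh5 probe 4254 on MA10 be fitted as well. Groups did not overlap at 1 endothelial probe with cyclic loess (Cldn5 on MA08) and at 0 to 2 with 1 animal left out, where fewer animals have to separate. The share over all probes at these settings is not given here, so no conclusion is drawn from these counts.

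Over all probes, 117 calls became 63 with cyclic loess, 76 with the floor, 238 with the filter on dim probes, 219 with an intensity trend, 176 and 38 with duplicates a or b, and 17 (without torpid animal 2) to 347 (without summer animal 1) with 1 animal left out. The single call in the wider lists became 2, 0, 0, 2 and 2 with quantile normalization, cyclic loess, the floor, the filter and the trend, 5 and 0 with duplicates a or b, and 0 to 7 with 1 animal left out. With the number in the labels as a replicate block there were 32 calls over all probes and 0 in the lists, and the endothelial median was 0.12. Animals that share a number correlated between -0.06 and 0.05 in their deviations. No pairing by number was seen, but values from so few animals cannot exclude it. Other causes were not tested.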
